A study of Mus musculus with 6 samples.

Results

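The genes described here mark the parts of the nephron beyond the proximal tubule: the thick ascending limb of the loop of Henle, the distal convoluted and connecting tubule, and the collecting duct with its principal and intercalated cells. The 32 members are a list of segment markers put together with earlier results of these data known, and all had at least 1 probe on the array, out of 34844 gene names that it carries. Of these, 31 were found by name, and Tfap2b was found by its RefSeq accession under its older name Tcfap2b. Each gene was read from its brightest probe, and 26 of the 32 passed the filter on dim probes and were tested.

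The samples were glomeruli of 4-month-old male mice of 2 strains; the glomeruli were isolated by bead perfusion. BXSB/MpJ-Yaa mice develop glomerulonephritis and carry Yaa, a piece of the X chromosome duplicated onto the Y chromosome. BXSB/MpJ-Yaa+ mice, the controls, carry a wild-type Y chromosome. Both share the recombinant inbred BXSB/MpJ background, derived from a C57BL/6 female and an SB/Le male. The 6 glomerular populations of each strain were pooled by 2, so that each group had 3 arrays of 1 pool each, and p-values measure the spread between pools.

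The thick ascending limb reabsorbs salt without water. Its apical cotransporter NKCC2 takes up sodium, potassium and chloride, the potassium channel ROMK returns potassium to the lumen, and chloride leaves on the basolateral side through chloride channels with their subunit barttin. The distal convoluted tubule reabsorbs salt through the cotransporter NCC, and the collecting duct takes up water through aquaporins, sodium through the epithelial sodium channel, and secretes acid or base through its intercalated cells. The macula densa, at the end of the thick ascending limb, touches the glomerulus of its own nephron.

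On the arrays as a whole, the 75th percentile of the spot signal ran from 261.2 to 432.1, and 50.5% to 59.8% of spots stood well above background. Precision is limited by the number of arrays. Of the 10 podocyte genes, which mark the labelled tissue, 9 were well above background on all 6 arrays, Cdkn1c and Nes among them, while the probe of the other, a defining marker, was so on 1 of 3 arrays in each group. Values below are log2 signals relative to each array's 75th percentile over probes, fold changes are Yaa minus control on that scale ± SE with n = 3 arrays per group, and adjusted p-values are from limma over all 20716 genes tested. Over all of these genes the median fold change was -0.11, and it was -0.14 to -0.08 under the other scalings of whole arrays. Values of different probes are not comparable as amounts of RNA, so each gene is compared only with itself.

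Among the 26 tested members 4 fell in Yaa glomeruli, none rose and 22 did not pass. They were Irx1, Irx2, Slc12a1 and Bsnd, 3 of them listed under the thick ascending limb and Bsnd under several segments. The 4 are 15.4% of the tested members, where 0.850% of all genes tested were lower and 2.96% higher (3.81% in either direction). At an unadjusted p under 0.05 limma counted 14 members lower and none higher, where 16.1% of all genes passed in either direction. For 15 of the 26 members every Yaa array lay below every control array, which was so for 17.4% of all genes, and no member showed the reverse order, which 7.81% of all genes did (25.2% for either order). Avpr2 is in both counts although it passed the filter through the control arrays alone, being above background on 2 of the 3 Yaa arrays, so that its order cannot be read apart from the filter. The median fold change was -0.55 over the tested members and -0.44 over all 32 by their brightest probes. Whether a segment contributed fewer cells or less RNA per cell cannot be told apart in these samples.

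**Figure D1:**
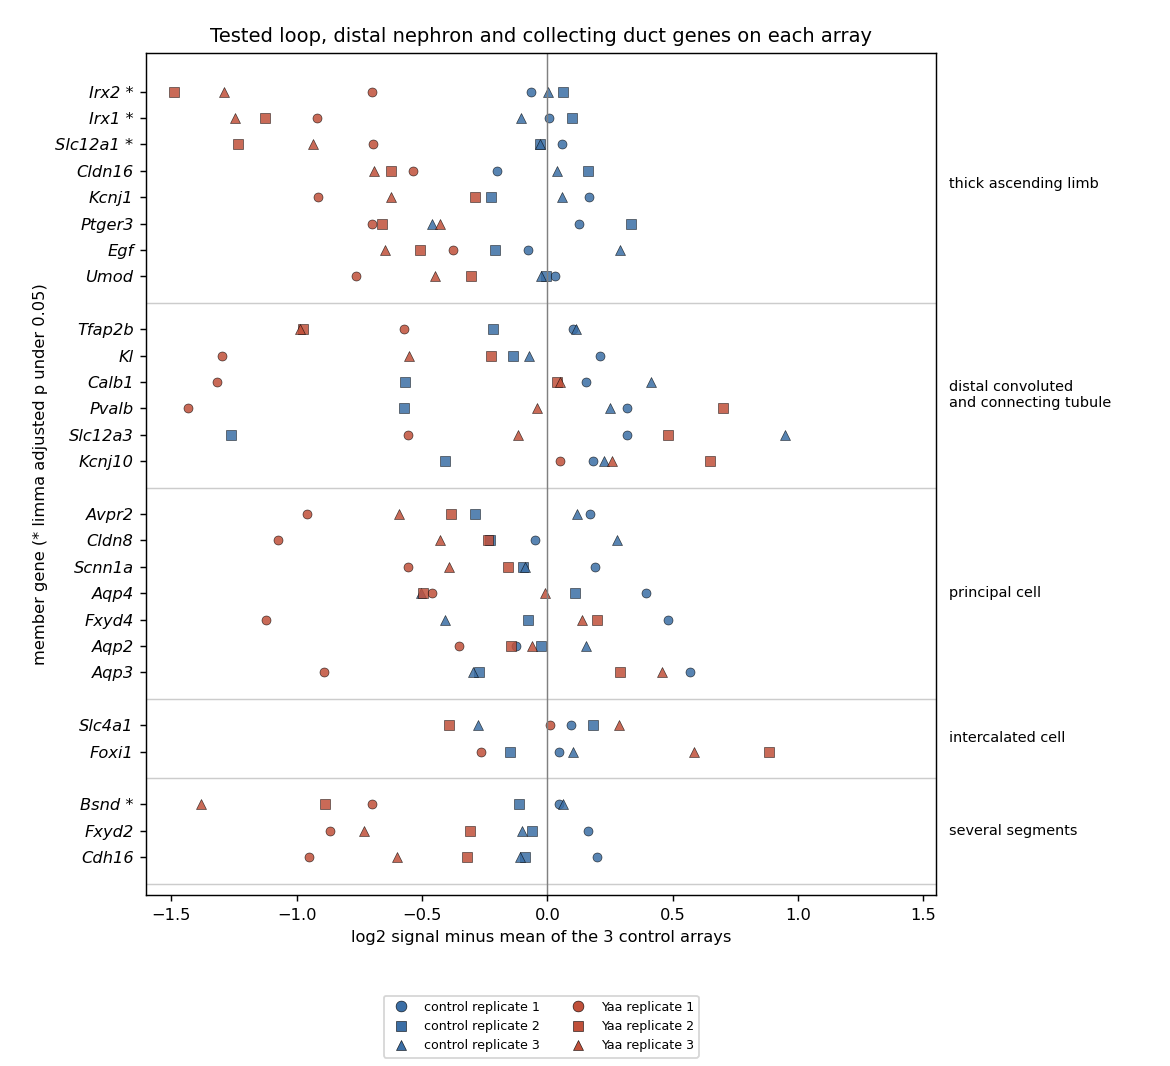
Each row is 1 of the 26 tested members, grouped by segment. The x axis is the log2 signal of an array minus the mean of the 3 control arrays of that gene, blue marks are control arrays, red marks are Yaa arrays, the shape gives the replicate number and an asterisk marks an adjusted p under 0.05. In the thick ascending limb block the red marks lie left of the blue ones in every row but Ptger3, while in the distal convoluted and connecting tubule block they mix for Calb1, Pvalb, Slc12a3 and Kcnj10.

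Promoter windows from RefSeq (GRCm38.p6) were at hand for 21 of the 32 members and for 2 of the 4 that fell, and those 2 are shown because Slc12a1 and Irx2 moved in the same direction. Each is the 250 bases before the annotated start, 5′ to 3′ on the gene's own strand, with motif matches in capitals. That of Slc12a1 lies at chr2:125152350-125152599 (plus strand) and that of Irx2 at chr13:72628570-72628819 (plus strand).
Slc12a1: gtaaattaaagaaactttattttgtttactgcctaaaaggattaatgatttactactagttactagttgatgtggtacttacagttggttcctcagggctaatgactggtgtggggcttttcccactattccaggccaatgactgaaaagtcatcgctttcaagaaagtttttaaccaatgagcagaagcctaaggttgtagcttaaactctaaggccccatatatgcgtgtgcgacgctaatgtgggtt
Irx2: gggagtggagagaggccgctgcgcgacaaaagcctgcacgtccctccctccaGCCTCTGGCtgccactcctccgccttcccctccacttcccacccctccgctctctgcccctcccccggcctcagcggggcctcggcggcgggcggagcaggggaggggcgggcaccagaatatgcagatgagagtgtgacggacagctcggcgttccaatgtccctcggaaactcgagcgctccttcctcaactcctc
Both strands were searched for the TATA box TATAAA, the HNF1 letters GTTAAT, the Iroquois palindrome ACANNTGT and the AP-2 palindrome GCCNNNGGC, and no matches overlapped in these windows. The Slc12a1 window held none of these letters, and the Irx2 window held 1 AP-2 match, GCCTCTGGC, starting 198 bases before the start. The AP-2 letters occur in 13.7% of all 32851 windows of this length and in 7 of the 23 windows of members, and the HNF1 letters in 6.43% of all windows and in 3 of the members' windows. The Iroquois letters were in 6.31% of all windows and 2 of the members' ones, and the TATA box in 12.4% and 4. A match describes the letters and not a bound site.

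The 8 thick ascending limb genes were all lower on average in Yaa glomeruli, as were 66.5% of all genes tested. Their fold changes were -1.16 to -0.51 with a median of -0.61. Of the 8, 3 passed the test as lower, where 0.850% of all genes tested did. Slc12a1 encodes NKCC2, the target of loop diuretics. It stood at 1.32, 1.23 and 1.23 on control replicates 1, 2 and 3 and at 0.57, 0.03 and 0.33 on Yaa replicates 1, 2 and 3, the order kept for all genes below. All Yaa arrays were thus below all control arrays, and the controls lay close together. The fold change was -0.96 ± 0.16 (adjusted p = 0.0266), which is a control level 1.94-fold that of Yaa. Its probe lies on chromosome 2 from 125055143 to 125055202 on mm9, the assembly of the array's probes, and no annotation of that assembly was used to place it in an exon.

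Irx1 and Irx2 encode homeodomain transcription factors of the Iroquois family, which act in patterning the nephron. Irx1 was at 2.41, 2.50 and 2.30 on the control arrays and at 1.49, 1.28 and 1.16 on the Yaa arrays. The gap between the groups was wider than the range within either. Its fold change was -1.10 ± 0.14 (adjusted p = 0.00721, a control level 2.14-fold that of Yaa), the smallest adjusted p of the members. Irx2 was at 0.53, 0.66 and 0.60 on the control arrays and at -0.10, -0.89 and -0.69 on the Yaa arrays. The groups did not overlap, and Yaa replicate 1 lay nearer to the controls than the other 2. Its fold change was -1.16 ± 0.21 (adjusted p = 0.0349, and 0.0779 when replicate number entered as a block). The dimmer second probe of Irx2, measured above background on only 1 Yaa array, differed by -0.60. Both genes lie on chromosome 13, with probes from 72095735 to 72095794 for Irx1 and from 72771499 to 72771558 for Irx2 on mm9.

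The other 5 thick ascending limb genes had fold changes that did not pass. Umod encodes uromodulin, the most abundant protein of normal urine and a product of this segment. It was at 6.06, 6.02 and 6.01 on the control arrays and at 5.27, 5.72 and 5.58 on the Yaa arrays, -0.51 ± 0.15 (adjusted p = 0.162). The control values were close together, and all Yaa values were lower. Kcnj1, the ROMK channel, was at 4.10, 3.71 and 3.99 against 3.02, 3.65 and 3.31, a fold change of -0.61 ± 0.20 (adjusted p = 0.193). Yaa replicate 2 came within 0.1 of control replicate 2, so that the groups were barely apart. Cldn16, a claudin of paracellular magnesium and calcium reabsorption, was at -2.91, -2.55 and -2.67 against -3.25, -3.33 and -3.41, a fold change of -0.62 ± 0.14 (adjusted p = 0.0738).

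Egf, the precursor of epidermal growth factor, made in this segment and the distal convoluted tubule, was at 4.78, 4.64 and 5.14 on the control arrays and at 4.48, 4.34 and 4.21 on the Yaa arrays, -0.51 ± 0.17 (adjusted p = 0.203). Its groups did not overlap, by a small margin. Ptger3, a prostaglandin E2 receptor, was at -0.96, -0.75 and -1.55 against -1.79, -1.75 and -1.52, a fold change of -0.60 ± 0.22 (adjusted p = 0.254). It was the member of this segment whose groups overlapped, since control replicate 3 was as low as the Yaa arrays. Its second probe differed by -0.82.

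The 3 genes of several segments were lower on every Yaa array than on any control array, as were 17.4% of all genes. Of the 3, 1 passed as lower, where 0.850% of all genes tested did. Bsnd encodes barttin, a subunit of chloride channels in the loop, the distal tubule and intercalated cells. It was at 2.73, 2.57 and 2.74 on the control arrays and at 1.98, 1.79 and 1.30 on the Yaa arrays. The controls lay close together, and Yaa replicate 3 was the lowest. Its fold change was -0.99 ± 0.20 (adjusted p = 0.0434, and 0.0830 when replicate number entered as a block), a control level 1.99-fold that of Yaa, read from a probe on chromosome 4 from 106156065 to 106156124 on mm9. Cdh16, the kidney-specific cadherin of tubule membranes, was at 5.12, 4.83 and 4.81 against 3.97, 4.60 and 4.32, -0.62 ± 0.19 (adjusted p = 0.174). Fxyd2, the gamma subunit of the sodium pump, was at 8.01, 7.79 and 7.75 against 6.98, 7.54 and 7.12, -0.64 ± 0.18 (adjusted p = 0.138), and its second probe also differed by -0.64. For both, Yaa replicate 1 was lowest and Yaa replicate 2 was nearest to the controls.

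With the replicate number as a block 2 members, Irx1 and Slc12a1, passed in place of 4. All 4 had fold changes below 0 in each of 13 alternative settings, but the calls moved when single arrays were left out: without control replicate 1 or 3, or Yaa replicate 2, Irx1 alone passed, without Yaa replicate 3 Irx1 and Bsnd did, and without control replicate 2 none did (Irx1 at an adjusted p of 0.0508), while 5 did without Yaa replicate 1.

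**Figure D2:**
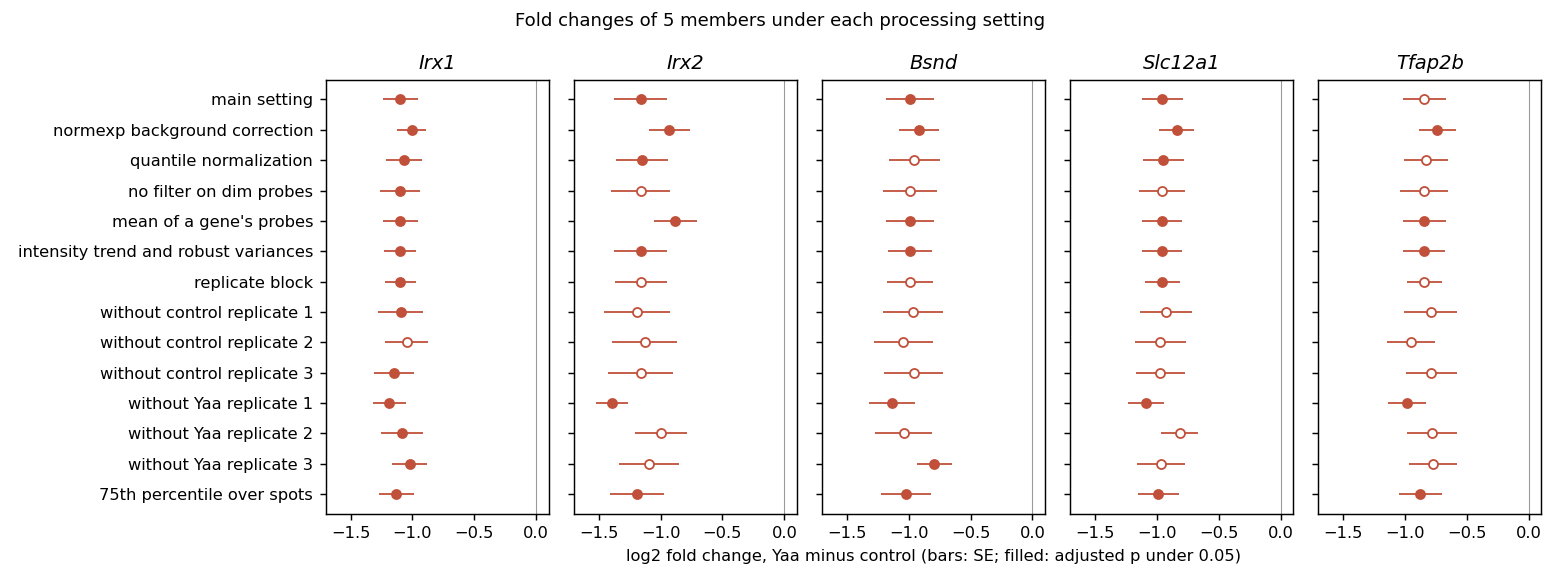
Log2 fold changes of Yaa over control for Irx1, Irx2, Bsnd, Slc12a1 and Tfap2b, with SE as bars, in the main setting (top) and the 13 alternatives. Filled circles have an adjusted p under 0.05. All values lie left of 0, between -1.39 and -0.74, whereas filled and open circles both occur for every gene, with Irx1 open once.

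The distal convoluted and connecting tubule genes had no member past the test among 6 tested. Tfap2b, the AP-2 beta transcription factor of the distal nephron, came nearest. It was at 1.35, 1.04 and 1.37 on the control arrays and at 0.68, 0.28 and 0.27 on the Yaa arrays. The groups did not overlap, and the fold change was -0.84 ± 0.17 with an adjusted p of 0.0501. This was 0.0277 without Yaa replicate 1 and 0.0403 with normexp background correction. It was 0.0641 when replicate number entered as a block and 0.211 without control replicate 1. Kl, which encodes the FGF23 co-receptor Klotho, was at 1.52, 1.17 and 1.24 against 0.01, 1.08 and 0.76, a fold change of -0.69 ± 0.28 (adjusted p = 0.290). All Yaa arrays lay below all control arrays, with Yaa replicate 2 nearest to the controls and Yaa replicate 1 well under the other Yaa arrays.

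Slc12a3, which encodes NCC, the target of thiazide diuretics, varied within both groups. It was at 1.19, -0.39 and 1.82 on the control arrays and at 0.32, 1.36 and 0.76 on the Yaa arrays, with a fold change of -0.06 ± 0.56 (adjusted p = 0.965). Its SD was 1.14 among controls, and all Yaa arrays lay inside the range of the controls. Pvalb, the calcium buffer parvalbumin of the early distal convoluted tubule, was at 2.55, 1.66 and 2.48 against 0.79, 2.93 and 2.19 (-0.26 ± 0.54). Calb1, the calbindin that carries calcium through distal cells, was at 0.82, 0.10 and 1.08 against -0.65, 0.70 and 0.72 (-0.41 ± 0.43). Control replicate 2 and Yaa replicate 1 were the low arrays for both. The second probe of Calb1, above background on 2 of 3 Yaa arrays, differed by -0.75, and that of Pvalb by -0.16.

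Kcnj10, a basolateral potassium channel, was at 2.21, 1.62 and 2.25 against 2.08, 2.67 and 2.28, with a fold change of 0.32 ± 0.23 (adjusted p = 0.533). Trpv5, the apical calcium channel, was not well above background on any of the 6 arrays and was not tested. For all 6 tested genes of this segment the lowest control array was replicate 2, which was the lowest control for 25.0% of all genes. The lowest Yaa array was replicate 1 for 5 of the 6, against 37.2% of all genes. The within-group SD of these genes had a median of 0.42 in controls and 0.53 in Yaa samples, where the medians were 0.14 and 0.20 for the thick ascending limb genes and 0.15 and 0.25 over all genes. The median fold change of this segment was -0.33 and depended on single arrays. It was 0.11 without Yaa replicate 1, -0.17 without control replicate 3, -0.22 without control replicate 1, -0.50 without Yaa replicate 3, and -0.69 without control replicate 2 or without Yaa replicate 2.

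The principal cell genes had no member past the test among 7 tested, and a median fold change of -0.32. Aqp2, the vasopressin-regulated water channel, was at -0.40, -0.30 and -0.12 on the control arrays and at -0.63, -0.42 and -0.33 on the Yaa arrays, -0.19 ± 0.14 (adjusted p = 0.548). The groups overlapped. Aqp3, a basolateral water channel, was at -0.93, -1.77 and -1.80 against -2.39, -1.21 and -1.04 (-0.05 ± 0.41), with control replicate 1 the highest array and Yaa replicate 1 the lowest. Aqp4, another basolateral water channel, stood at -0.32 ± 0.26, while its dimmer probe, also well above background on all arrays, differed by 0.47, so that its 2 probes disagree in sign.

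Avpr2, the vasopressin receptor that acts on Aqp2, was at -2.73, -3.18 and -2.78 on the control arrays and at -3.85, -3.28 and -3.49 on the Yaa arrays, of which 2 of 3 were well above background. Its fold change was -0.65 ± 0.20 (adjusted p = 0.177). The groups were apart, but Avpr2 passed the filter through the control arrays alone, so that this order cannot be read apart from the filter. Its dimmer second probe, above background on 1 control array and 2 Yaa arrays, differed by -0.11. Cldn8, a claudin of the collecting duct, differed by -0.58 ± 0.25 (adjusted p = 0.321) and Fxyd4, a regulator of the sodium pump, by -0.26 ± 0.40 (adjusted p = 0.765). Both had their lowest value on Yaa replicate 1, at -2.07 for Cldn8 and -1.63 for Fxyd4.

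Of the epithelial sodium channel, which has alpha, beta and gamma subunits, only the alpha subunit was measured well enough to test. Scnn1a (alpha) was at 2.39, 2.11 and 2.12 against 1.65, 2.05 and 1.81, a fold change of -0.37 ± 0.16 (adjusted p = 0.319). Scnn1b (beta) was not above background in any control and stood above it on 1 Yaa array, replicate 2 at -3.55, beside -5.34 and -5.03 on the other Yaa arrays. No fold is given for it, since the Yaa mean of -4.64 lay below the lowest signals that counted as well above background on the control arrays. Scnn1g (gamma) and Hsd11b2, the enzyme that protects the mineralocorticoid receptor from glucocorticoids, were not well above background on any array.

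The intercalated cell genes Slc4a1 and Foxi1 did not pass, and the other 2 were not tested. Foxi1, the transcription factor that specifies these cells, was at -0.95, -1.14 and -0.89 on the control arrays and at -1.26, -0.11 and -0.41 on the Yaa arrays. Yaa replicates 2 and 3 were above all controls and Yaa replicate 1 was below them, with a fold change of 0.40 ± 0.29 (adjusted p = 0.528). Slc4a1, the anion exchanger AE1 of acid-secreting cells and of red cells, was at 0.69, 0.77 and 0.31 against 0.60, 0.20 and 0.87 (-0.03 ± 0.22, adjusted p = 0.951). Its high and low arrays were in both groups.

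Red cell transcripts were on the same arrays. The 3 globin genes of the erythroid list with the highest signal, Hba-a1, Hbb-b1 and Hbb-b2, differed by 0.03 ± 0.31, 0.08 ± 0.33 and 0.37 ± 0.41, and none of the 5 tested genes of the 9 on that list passed, while the other 4 were not well above background on any array. The summed level of the erythroid list ranged from 172 to 246 in controls and from 144 to 325 in Yaa samples, and like Slc4a1, which is on that list, it was lowest on Yaa replicate 2 and highest on Yaa replicate 3. Among controls it was highest on replicate 3, where Slc4a1 was lowest. Its part in the Slc4a1 values was not tested.

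Atp6v0d2, a subunit of the proton pump in intercalated cells and in osteoclasts and some macrophages, was well above background on 2 of 3 arrays in each group. It stood at -3.84, -3.67 and -3.77 on the control arrays and at -3.88, -3.02 and -2.68 on the Yaa arrays. Acp5 and Ctsk, genes of osteoclasts and macrophages, rose by 4.08 ± 0.23 and 0.88 ± 0.16 on these arrays, and Ocstamp, at 1.68 ± 0.40, did not pass (adjusted p = 0.0818). The summed level of that list of 7 genes, Atp6v0d2 included, went from 5.36 to 8.08 in controls to 75.2 to 111 in Yaa samples. Acp5 gave most of that signal in controls and nearly all of it in Yaa samples. The part of the cells that these genes mark in the Atp6v0d2 values was not tested. Mmp9 was not above background anywhere, nor were Dcstamp and Gpnmb in controls. Atp6v1g3, the kidney form of a subunit of the same pump, was at -2.25, -4.42 and -3.96 against -4.24, -3.35 and -4.42, above background on 2 of 3 arrays in each group. These values were near background, and neither subunit gene was tested, so that a difference could not be judged.

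Genes of the same segments outside the member list, 59 of them, were read in the same way, and 54 were tested. In Yaa glomeruli 4 fell, none rose and 50 did not pass, a share of 7.41%, where 0.850% of all genes were lower. The count was 0 without control replicate 1 or control replicate 2, 1 without control replicate 3 or Yaa replicate 2, 6 without Yaa replicate 1, 2 with quantile normalization and 0 with no filter on dim probes. Cldn10, a claudin of the thick ascending limb whose gene also has other forms, fell by 1.04 (SE 0.18, adjusted p = 0.0300), from 1.07, 0.88 and 0.53 on the control arrays to -0.42, -0.17 and -0.04 on the Yaa arrays, which did not overlap.

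Atp1b1, the beta subunit of the sodium pump, fell by 0.68 (SE 0.13, adjusted p = 0.0424), and Wfdc2, a secreted protein of tubule epithelium, fell by 0.85 (SE 0.14, adjusted p = 0.0198). For both genes every Yaa array was below every control array. With the replicate number as a block 1 other gene of the list passed but none of these 4, at adjusted p = 0.0632 for Wfdc2, 0.0929 for Cldn10 and 0.101 for Atp1b1 among them. The median of the 54 genes was -0.39, and 21 had all Yaa arrays below all controls, which was so for 17.4% of all genes.

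**Figure D3:**
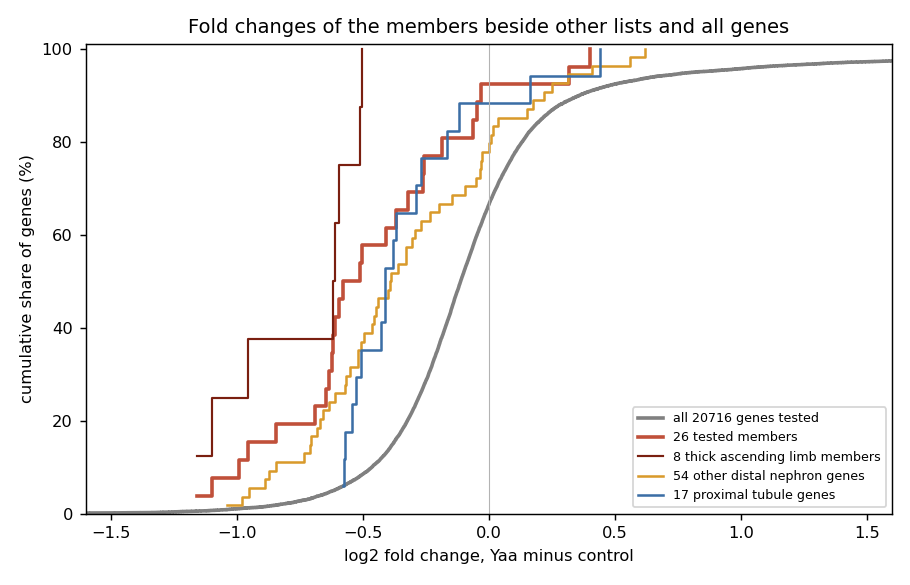
Cumulative share of genes (y axis, percent) at or below each log2 fold change of Yaa over control (x axis) for all 20716 genes tested, the 26 tested members, the 8 thick ascending limb members among them, 54 other distal nephron genes and 17 proximal tubule genes. The thick ascending limb curve ends at -0.51, while the medians of the other lists lie between -0.55 and -0.39 and that of all genes at -0.11.

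The segments can be set side by side as means over their tested genes on each array. Thick ascending limb genes had a mean log2 signal of 1.92, 1.93 and 1.88 on the controls, against 1.21, 1.13 and 1.12 for Yaa. These means are close together, but they cover genes of opposite order: Yaa replicate 1 was the lowest Yaa array for Umod, Kcnj1 and Ptger3 and the highest for Slc12a1, Irx1, Irx2, Cldn16 and Egf. For the distal convoluted and connecting tubule genes the means were 1.61, 0.87 and 1.71 against 0.54, 1.50 and 1.16, and for the principal cell genes -0.49, -0.85 and -0.83 against -1.50, -0.86 and -0.85. In these lists Yaa replicate 1 was low while Yaa replicates 2 and 3 were within the range of the controls or less than 0.1 outside it. The 2 tested intercalated cell genes averaged -0.13, -0.19 and -0.29 against -0.33, 0.04 and 0.23.

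Proximal tubule genes, which mark the segment that follows the glomerulus, were on the arrays too. Their list had a median fold change of -0.41 and none of 17 tested genes passed limma's test, with 1 at an unadjusted p under 0.05. The 3 with the highest signal were Kap at -0.58 ± 0.43, Miox at -0.17 ± 0.50 and Slc27a2 at -0.27 ± 0.46. The mean over the list was 3.91, 3.45 and 3.17 in controls against 2.44, 3.68 and 3.42 in Yaa samples. For the proximal mean, Yaa replicates 2 and 3 thus lay within the range of the controls, above control replicate 3 and below control replicate 1. For the thick ascending limb mean they lay below every control. Leaving out 1 array at a time, the proximal median ranged from -0.59 (without Yaa replicate 2) to -0.06 (without Yaa replicate 1), and was -0.19 without control replicate 1. The thick ascending limb median ranged from -0.71 to -0.62, and the 2 medians were -0.59 and -0.69 without Yaa replicate 2. The difference between the segments was not tested.

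**Figure D4:**
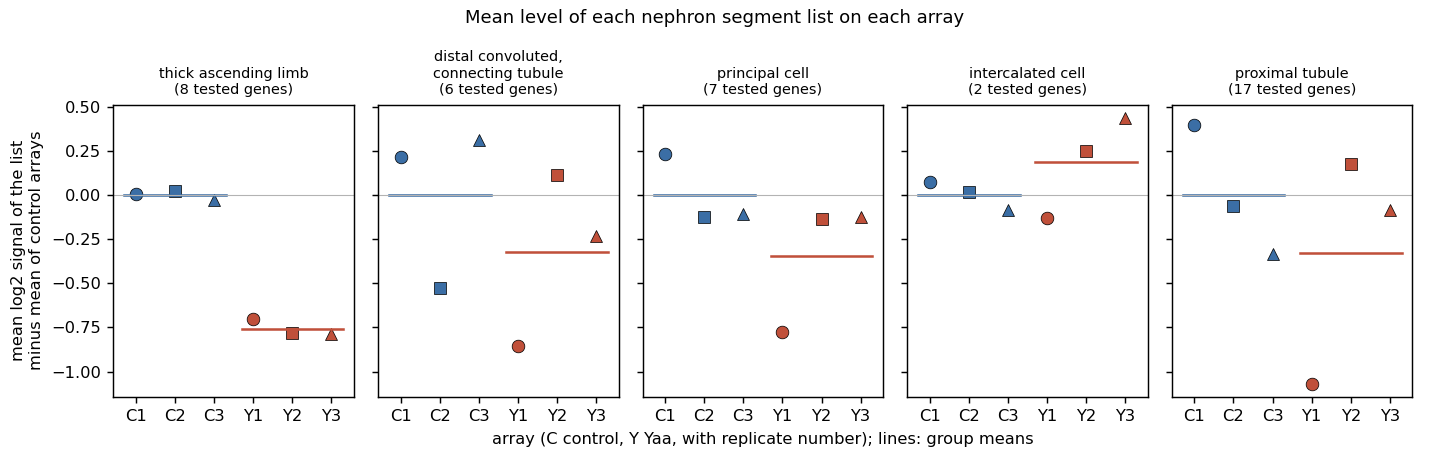
Mean log2 signal over the tested genes of 5 lists on each array, minus the mean of the 3 control arrays (y axis); C1 to C3 are control and Y1 to Y3 Yaa arrays, and lines are group means. For the mean of the thick ascending limb list, whose genes order the Yaa arrays differently, the 3 Yaa arrays lie together under the controls, whereas for the proximal tubule, distal convoluted and connecting tubule and principal cell lists Y1 lies lowest and Y2 and Y3 lie among the controls or next to them.

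Markers of other cells were read in the same way. Of 11 macrophage markers 10 rose, where 2.96% of all genes did, among them Csf1r by 2.13 ± 0.13 and Mpeg1 by 3.92 ± 0.27 but not Cd14. Some of the 10 passed the filter through the Yaa arrays alone. The summed level of the list went from 20.9 to 23.9 in controls to 119 to 189 in Yaa samples. Of the glomerular cell lists, podocyte genes had a median of -0.32 (0 of 9 passed, 3 at an unadjusted p under 0.05), endothelial genes -0.24 (0 of 10, and 3, of which 1 was higher), mesangial genes -0.22 (0 of 10, and 3) and parietal epithelial genes -0.52 (0 of 5, and 4). Over all genes 16.1% had an unadjusted limma p under 0.05, in either direction. Summed levels ranged from 1401 to 1456 in controls and 1076 to 1256 in Yaa samples for podocyte genes, and from 17.3 to 18.4 and 11.2 to 13.6 for parietal epithelial genes. Their part in the lower values of the members was not tested.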

How the data were processed

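Gene expression was measured in glomeruli with 1-colour Agilent arrays, 1 per pool, in 3 control and 3 Yaa samples. The deposited signal intensity was background-subtracted and detrended within each array by Agilent Feature Extraction, version 10.7.3.1 per the file headers and 9.5.3 per the submitters' processing notes, and was not normalized between arrays. Groups were taken from the titles. The source names give the other strain in every sample, while genotype and description match the titles.

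Control spots (3671) and outlier spots (121 to 166 per array) were left out. For each array, log2 signals were averaged per probe (55681 probes) and the 75th percentile over probes was subtracted. Probes were kept where a share of at least 0.5 of their spots was well above background on every array of either group, which left 28598. A gene took its kept probe with the highest mean, which for every tested member was also its brightest probe overall. No spot was saturated. The strains were compared by limma's moderated test (version 3.58.1, run under R 4.3.3), two-sided, with Benjamini-Hochberg adjustment over 20716 genes and a threshold of 0.05. The fit was tested on simulated data whose planted changes were larger than that of any member, so it says nothing of changes as small as theirs.

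Text names all members, the other distal nephron genes past the threshold, and of each marker list up to 3 genes with the highest signal, or ones that a result turns on; a few of these genes are not reported here. Atp6v0d2's companions Mmp9, Dcstamp and Gpnmb were named after their values were seen. Members and lists were chosen with earlier results of these data known.

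Replicate numbers 1 to 3 recur in both groups. Deviations from the group means correlated at 0.126, 0.205 and 0.218 for the same numbers, so same-numbered arrays were treated as pairs in an alternative with the replicate block. No label states that pairing. All arrays lay on 1 slide by the barcodes in the file headers, which end in 2 position numbers. The first was 1 for every control array and 2 for every Yaa array, so position on the slide and strain cannot be told apart. The second equalled the replicate number in both groups, so same-numbered arrays also shared that position number. Other alternatives were normexp background correction with an offset of 50, quantile normalization, no filter on dim probes, the mean of a gene's probes, an intensity trend with robust variances, leaving out each array, and the percentile over spots, the last chosen after seeing the data.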

Additional observations from a re-analysis of the deposited data

How the results depend on the processing

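The 4 members that fell kept a fold change below 0 in all 13 alternatives, and their calls did not all hold. Against 4 members and 790 genes changed, there were 1 and 396 with no filter on dim probes, where more genes are tested. With the replicate block there were 2 members, and this changed no other member's call. Leaving out 1 array at a time, which also leaves fewer samples, gave 0 to 5 members and 399 to 1027 genes, and member medians of -0.64 to -0.38. Bsnd did not pass with quantile normalization (adjusted p = 0.0607). Tfap2b passed in 5 alternatives. No other member passed in any of the 13. Signal near background limits Trpv5, Scnn1b, Scnn1g, Hsd11b2, Atp6v1g3 and Atp6v0d2, which were not tested, so a change at these levels could not be judged.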

Other observations

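Cells of the macula densa and the renin-producing cells beside it adjoin the glomerulus, and 3 of their genes, picked after their values were seen, can be read on these arrays. Nos1, the neuronal nitric oxide synthase of the macula densa, was at -3.41, -3.01 and -3.28 on control replicates 1 to 3 and at -3.14, -4.36 and -4.82 on Yaa replicates 1 to 3, where 1 of the 3 Yaa arrays was well above background (limma fold change -0.87 ± 0.41, adjusted p = 0.357). Pappa2, a protease of the macula densa, was at 1.61, 1.63 and 1.75 against 1.80, 0.84 and 0.99 (-0.45 ± 0.26, adjusted p = 0.435). Both were lower on Yaa replicates 2 and 3 than on any control array, but not on Yaa replicate 1. Nos1 passed the filter through the control arrays alone, so that its order cannot be read apart from the filter. Ren1, which encodes renin, was at 1.29, 2.10 and 2.06 against 0.96, 1.10 and 1.28 (-0.70 ± 0.24, adjusted p = 0.212). Its groups did not overlap, by a margin of under 0.1, and 17.4% of all genes likewise had every Yaa array below every control array. None of the 3 genes passed the test.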
